A study of Mus musculus with 4 samples.

Results

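Red-cell precursors carry a defined set of transcripts, and 37 of these genes were followed here: erythroid transcription factors, receptors, enzymes of haem synthesis, mitochondrial carriers, membrane and membrane-skeleton proteins, soluble enzymes and proteins of late maturation. They were chosen by name, with earlier results of these data known, and without the globins, whose rows share reads. Of the 37, 36 had a row among the 24421 rows of the count table, 35 by symbol and Epb42 under the older name Epb4.2. Ahsp, the chaperone of alpha globin, matched no row and was not analysed here. All 36 passed the filter on low counts, with no fewer than 201 counts in any library.

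The libraries came from superficial-zone cartilage of the medial femoral condyle of the knee in 2 C57BL/6J mice, called M04 and M05, taken 8 weeks after surgery. Each mouse gave 2 libraries: 1 from a knee whose medial meniscus had been surgically destabilized (DMM, a model of osteoarthritis) and 1 from a sham-operated knee. Titles and treatment labels set the groups, although the free-text description of each sham sample mentions a DMM knee. All 4 samples are labelled wild type, whereas the series' design text writes KO for M05 without naming a gene, so the mice are compared here as 2 animals and not as genotypes. Age and sex are not given in the labels.

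Erythroid cells arise in the bone marrow under the hormone erythropoietin and the transcription factors GATA1, TAL1 and KLF1. As they mature they take up iron through the transferrin receptor, build haem in a chain of enzymes that begins and ends in the mitochondrion, assemble a spectrin-based skeleton beneath the membrane, and finally lose their nucleus and mitochondria. Reticulocytes, the last stage, still carry RNA, while articular cartilage itself has no blood vessels.

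The libraries held 12712425 to 19336628 counts. Transcripts of chondrocytes were present but few: 10 markers, among them Col2a1, Acan and Prg4, summed to 5021 (sham) and 6337 (DMM) CPM (counts scaled to a common total) for M04, and to 1044 (sham) and 4030 (DMM) CPM for M05. The sham library of M05 stood apart by the lowest chondrocyte level and the largest total. Transcripts of marrow and blood cells accompanied the labelled cartilage in every library, and in such bulk samples fewer cells of a type and less RNA per cell cannot be told apart.

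The 36 genes were abundant in every library. In M04 they made up 1.58% of the sham library (95% Wilson interval 1.575 to 1.589) and 1.41% of the DMM library (1.406 to 1.418), and in M05 1.22% of the sham library (1.215 to 1.225) and 1.35% of the DMM library (1.347 to 1.360). These intervals cover counting error only. The share of all counts was thus lower in the DMM than in the sham knee of M04 and higher in the DMM than in the sham knee of M05. The haemoglobin rows, with the repeated rows Hbb-b1 and Hbb-b2 left out, followed another order, at 25.1%, 20.7%, 27.7% and 24.5% in the same sequence. Of the counts outside all haemoglobin rows, the 36 genes made up 2.27% (sham) and 1.90% (DMM) for M04 and 1.89% and 1.92% for M05. On that basis both libraries of M05 and the DMM library of M04 were close, and the sham library of M04 was higher. Per 1000 haemoglobin counts, the 36 genes had 63.0 (sham) and 68.3 counts (DMM) for M04 and 44.0 and 55.3 counts for M05. The ratio was higher in the DMM knee of each mouse and lower in both libraries of M05 than in both of M04. Hba-a1 and Hba-a2 had nearly the same counts, so shared reads counted for each of them would lower these ratios.

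**Figure D1:**
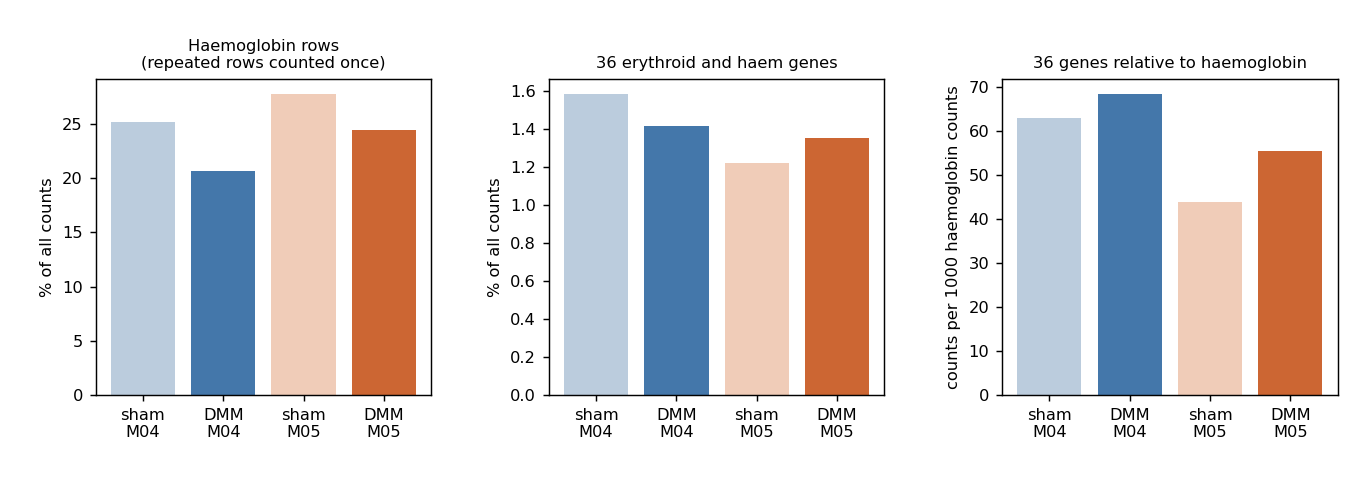
Share of all counts in the haemoglobin rows (left) and in the 36 erythroid and haem genes (middle), in percent, and counts of the 36 genes per 1000 haemoglobin counts (right), 1 bar per library. Haemoglobin was lowest in the DMM library of M04 (20.7%), whereas the 36 genes were lowest in the sham library of M05 (1.22%).

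Levels between genes were compared as FPKM, the authors' values per transcript length. The median of the 36 genes was between 52.3 and 64.8 FPKM in the 4 libraries, against 4.61 to 4.86 FPKM over all genes tested. Alas2, the erythroid form of the enzyme that starts haem synthesis, was the highest, with a mean of 1586 FPKM over the 4 libraries, and ranked between 21 and 31 among all rows by count. Next came Car2, a carbonic anhydrase, at 1061 FPKM, Bpgm, which makes the 2,3-bisphosphoglycerate that lowers the oxygen affinity of haemoglobin, at 522 FPKM, and Slc4a1, the anion exchanger band 3, at 449 FPKM. These 4 genes supplied 51.1% to 55.5% of the counts of all 36. The lowest were Trim58, a ubiquitin ligase of enucleating erythroblasts, at 8.90 FPKM, Tmod1, which caps the short actin filaments of the membrane skeleton, at 11.02 FPKM and Xpo7, a nuclear exporter, at 17.6 FPKM.

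**Figure D2:**
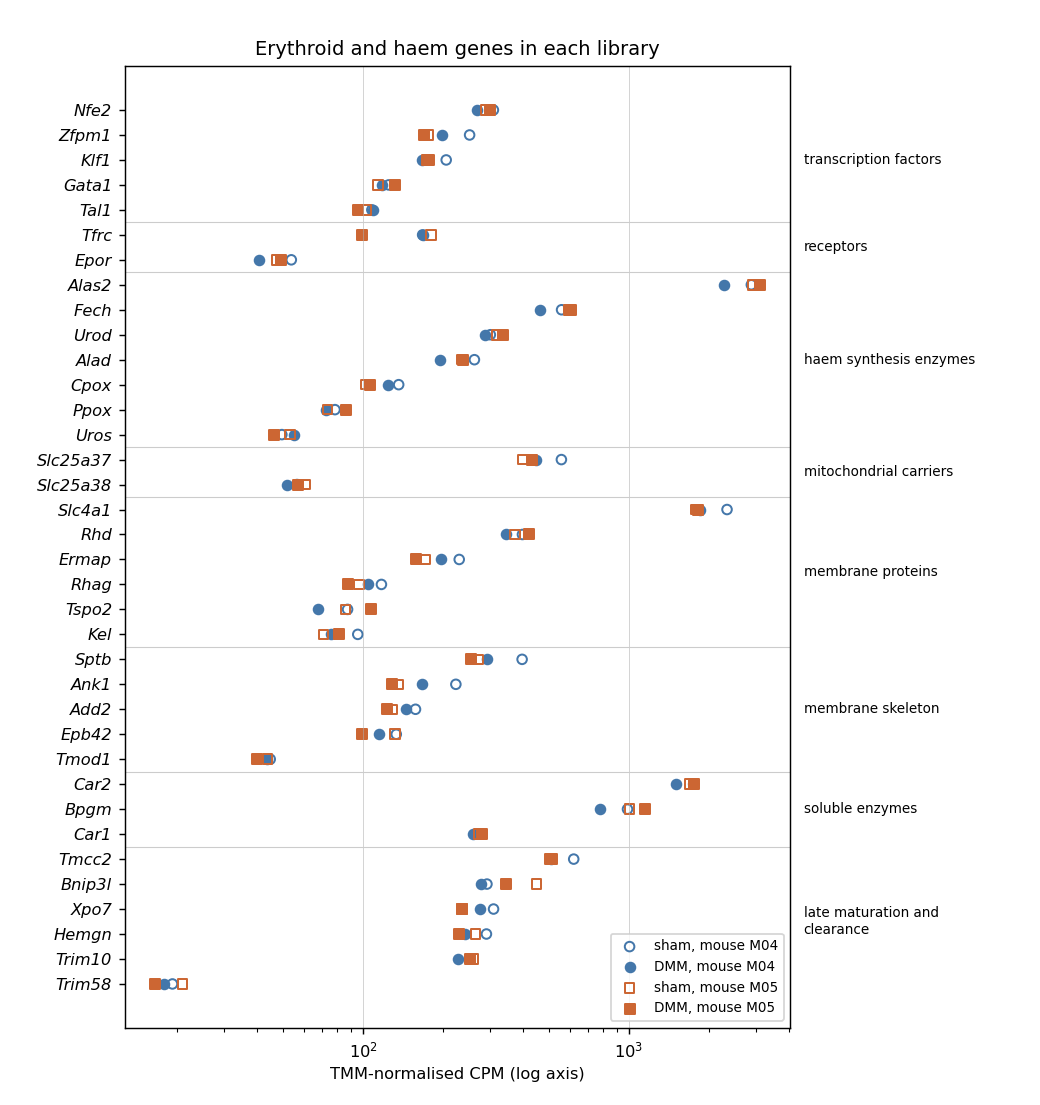
TMM-normalised CPM (log axis) of the 36 genes, grouped by role, with 1 symbol per library: circles for M04, squares for M05, open for sham and filled for DMM. Levels run from 16.5 CPM for Trim58 to 3112 CPM for Alas2, and the filled square of Tfrc (99.4 CPM) lies apart from its other 3 symbols.

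The transcription factors bind short DNA motifs, and the stretches shown here let a reader see such letters before genes described in the results. GATA factors are known to bind the letters AGATAA or TGATAA, and KLF factors letters of the kind CCNCNCCC. Both strands were searched, and matches of 1 motif may overlap each other. RefSeq promoter entries on GRCm38.p6, a build older than the GRCm39 of the counts, were matched for 27 of the 37 genes by symbol, with 33 start sites among them. The other 10 were Ahsp, Ank1, Bnip3l, Car1, Car2, Fech, Nfe2, Slc25a37, Slc4a1 and Xpo7. In the 250 bases before the start, AGATAA or TGATAA was found at 14 of the 33 sites (42.4%), against 16.6% of 32851 windows of all genes and 9.62% of the 12592 windows of the genes tested. CCNCNCCC was found at 19 of 33 (57.6%), against 45.9% and 62.8%. Capitals mark these matches in the stretches from 250 to 61 bases before the start. The 4 genes shown were picked and do not stand for the 33 sites. The first 3 stretches hold a GATA motif on the reverse strand, whose letters there read TTATCA or TTATCT. That of Tfrc, a gene used by all dividing cells, holds overlapping CCNCNCCC matches instead. Alas2 also had a CCNCNCCC match in the 250 bases before a start, outside the stretch shown. The stretches lie at chr8:84901732-84901921 (plus strand) for Klf1, chrX:150547167-150547356 (plus) for Alas2, chr4:119190056-119190245 (minus) for Ermap and chr16:32608646-32608835 (plus) for Tfrc.
Klf1: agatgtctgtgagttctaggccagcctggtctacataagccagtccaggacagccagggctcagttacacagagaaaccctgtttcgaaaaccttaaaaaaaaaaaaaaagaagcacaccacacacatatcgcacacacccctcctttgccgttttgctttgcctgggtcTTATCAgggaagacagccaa
Alas2: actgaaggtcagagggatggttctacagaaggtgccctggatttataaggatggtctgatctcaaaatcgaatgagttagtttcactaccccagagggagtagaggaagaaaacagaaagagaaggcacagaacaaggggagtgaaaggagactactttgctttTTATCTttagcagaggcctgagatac
Ermap: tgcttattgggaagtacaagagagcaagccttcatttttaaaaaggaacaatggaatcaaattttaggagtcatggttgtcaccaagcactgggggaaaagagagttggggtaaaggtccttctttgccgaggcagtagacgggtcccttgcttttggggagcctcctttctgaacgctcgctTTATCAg
Tfrc: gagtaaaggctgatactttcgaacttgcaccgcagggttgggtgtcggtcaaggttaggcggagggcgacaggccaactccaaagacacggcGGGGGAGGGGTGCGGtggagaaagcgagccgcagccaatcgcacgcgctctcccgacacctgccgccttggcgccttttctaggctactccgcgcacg
A match is a description of these letters and not evidence of binding.

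The comparison by surgery asked how the DMM knees differed from the sham knees. None of the 36 genes passed an adjusted p of 0.05 in edgeR's quasi-likelihood test with the mouse as a block, whereas 85 of the 13103 genes tested did (0.649%), 83 of them higher (0.633%) and 2 lower (0.0153%). At an unadjusted p under 0.05 stood 2 of the 36, Tfrc and Epb42, a share near that of all genes (681 of 13103). With DESeq2 none of the 36 was called and none had an unadjusted p under 0.05. The log2 fold changes of DMM against sham were small, from -0.42 for Tfrc to 0.06 for Gata1 with a median of -0.10, beside a median of -0.01 over all genes tested. Of the 36 values 33 were negative, against 52.1% of all genes, but without TMM scaling, a correction for differences in RNA composition, 17 were negative and the median was 0.01, as the median of all genes then stood at 0.10. Relative to all genes the median difference was -0.09 with either scaling. Without the sham library of M04, in a fit without the mouse term, 20 of 36 were negative and the median was -0.01. The 95% intervals of the 36 log2 fold changes reached from -0.72 (the lower limit of Tfrc) to 0.36 (the upper limit of Ppox). With 2 mice they do not measure the spread between animals, so they set no bound on the difference. The log2 ratios of Tfrc, 0.01 in M04 and -0.86 in M05, both lay outside its interval of -0.72 to -0.12. For 29 of the 36 genes the spread behind the 95% intervals came from the trend across genes rather than from the gene's own 4 values. Tfrc is not among the 29, yet its SE of 0.154 was the same as the median SE of the 36 genes (0.154). Its interval therefore does not reflect how far its 2 mice differed either.

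Within each mouse the counts were as follows. In M04 33 of the 36 genes were lower in the DMM than in the sham library, with a median log2 ratio of -0.21, against 6445 of all 13103 genes. In M05 17 were lower and the median was 0.01, against 6737 of all genes. These ratios use TMM scaling, without which 16 of the 36 fitted values for surgery changed sign. A DMM library below its sham library in both mice was seen for 14 of the 36 (38.9%), against 23.8% of all genes, and a DMM library above it in both mice for none, against 23.2%. Both DMM libraries were below both sham libraries for 4 genes (11.1%), Epb42, Tmod1, Hemgn and Trim58, a share near the 12.3% of all genes. A difference between the 2 mice in the DMM response was tested by setting M04 DMM and M05 sham against the other 2 libraries. A fit that also held mouse and surgery would leave no residual degree of freedom, so both terms were dropped, and differences by mouse and by surgery add to the spread in this test. No gene of the 36 passed, and the lowest unadjusted p was 0.095, for Tspo2 (adjusted p = 0.9998 by edgeR).

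**Figure D3:**
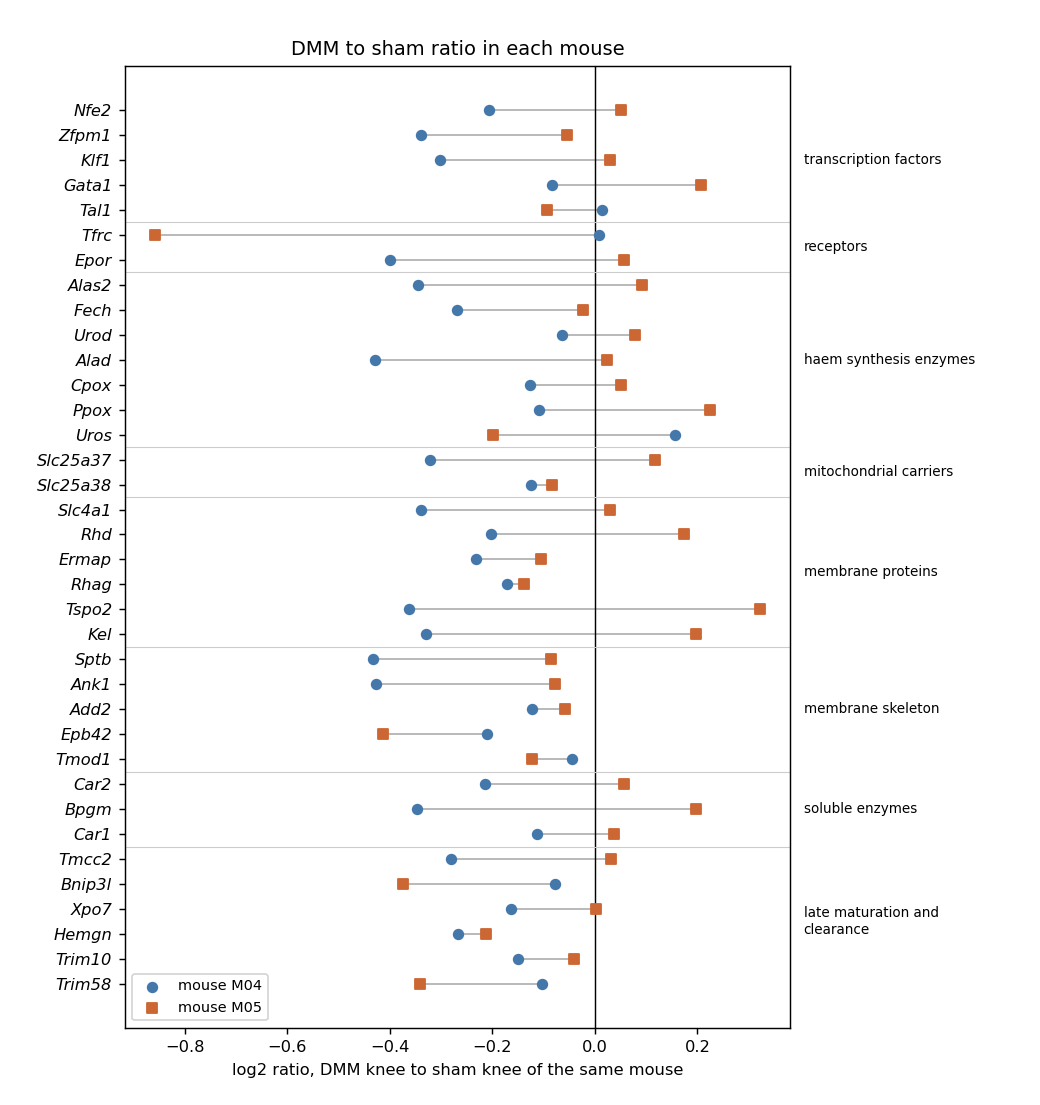
Log2 ratio of the DMM to the sham library in M04 (circles) and M05 (squares) for the 36 genes, grouped by role. Circles lie left of 0 for 33 genes and squares for 17, and the 5 membrane-skeleton genes are left of 0 in both mice with TMM scaling, without which the fitted values of Add2 (0.02) and Tmod1 (0.03) were positive.

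Among the transcription factors, Gata1 and its partner Zfpm1 (FOG-1), Klf1, Tal1 and Nfe2 differed between DMM and sham by -0.20 to 0.06 on the log2 scale. Nfe2, which acts in globin gene expression and in platelet formation and had the highest mean FPKM of the 5, stood at 309 (sham) and 268 CPM (DMM) for M04, and at 289 and 299 CPM for M05. Its groups overlapped, with a log2 fold change of -0.08 (SE 0.15). Gata1 stood at 125 and 118 CPM in M04 and at 114 and 132 in M05, which is lower in the DMM knee of the first mouse and higher in that of the second (0.06, SE 0.15). Zfpm1 had 251 and 199 CPM in M04 and 176 and 170 in M05, with the sham library of M04 above the other 3 (-0.20, SE 0.15). Tal1, a partner of GATA1 in transcription complexes, lay between 95.9 and 109 CPM in the 4 libraries. Klf1, which drives much of the late erythroid programme, showed the same single high library, at 205 CPM against 167 to 177 in the others. Gata1, Tal1, Nfe2 and Zfpm1 are also used by megakaryocytes. Of 9 megakaryocyte and platelet markers none passed the test for surgery, and they summed to 1767 (M04) and 1216 CPM (M05) in the sham knees and to 1658 and 1670 CPM in the DMM knees; their part in these levels was not tested. Mast cells and eosinophils also express Gata1. Their 10 markers, led by the eosinophil granule protein Prg2, summed to 4623 and 5804 CPM in the sham and 4228 and 6417 CPM in the DMM knees, and none of the 9 tested passed for surgery.

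Of the receptors, Epor, which receives erythropoietin, had 53.7 (sham) and 40.7 CPM (DMM) for M04 and 47.2 and 49.0 CPM for M05 (-0.17, SE 0.17). Tfrc, the transferrin receptor that brings in iron, had the lowest p of the 36 for surgery. It stood at 167 (sham) and 168 CPM (DMM) for M04, and at 180 and 99.4 CPM for M05. The DMM library of M05 was thus low and the other 3 were alike. The log2 fold change was -0.42 (SE 0.15, 95% interval -0.72 to -0.12, unadjusted p = 0.00609), and edgeR's adjusted p was 0.386, so the gene did not pass. Without the DMM library of M05, in a fit without the mouse term, it stood at -0.05, and without the DMM library of M04 at -0.80.

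Haem synthesis showed no gene past the test either, with log2 fold changes from -0.20 for Alad to 0.06 for Ppox. Alas2 had 2884 (sham) and 2269 CPM (DMM) for M04 and 2920 and 3112 CPM for M05. The DMM library of M04 was low and the rest were close, and the log2 fold change was -0.13 (SE 0.19). Fech, which inserts iron into the porphyrin ring in the last step, followed a like order, with 558, 463, 607 and 597 CPM (-0.15, SE 0.16). Urod, which trims the side chains of the early porphyrin, stood at 301 and 288 CPM in M04 and at 318 and 336 in M05 (0.01, SE 0.15). Ppox, the last enzyme before Fech, stood at 78.4 and 72.7 CPM in M04 and at 73.5 and 85.9 in M05 (0.06, SE 0.16). Alad had 262 and 195 CPM in M04 and 234 and 238 in M05, Uros lay between 46.1 and 55.2 CPM, and Cpox between 103 and 136 CPM. In M04 the DMM library was lower for 6 of the 7 enzymes, all but Uros, and in M05 for 2, Fech and Uros. Alad, Urod, Uros, Cpox, Ppox and Fech serve haem synthesis in all cells, so their transcripts need not come from erythroid cells alone.

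The mitochondrial carrier Slc25a37 (mitoferrin-1), which supplies iron for haem, had 557 (sham) and 445 CPM (DMM) for M04, and 399 and 433 CPM for M05. The sham library of M04 stood above the other 3 (-0.10, SE 0.16). Slc25a38, the carrier for the glycine used by ALAS2, varied less, between 51.8 and 60.3 CPM in the 4 libraries (-0.10, SE 0.16).

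Among membrane proteins, Slc4a1 stood at 2336 (sham) and 1847 CPM (DMM) for M04 and at 1777 (sham) and 1813 CPM (DMM) for M05 (-0.16, SE 0.18). It repeated the single high library seen for Slc25a37 and Klf1. Rhd, which encodes the Rh blood group protein, had 397 and 345 CPM in M04 and 372 and 420 in M05, with overlapping groups (-0.01, SE 0.16). Tspo2, an erythroid relative of the mitochondrial translocator protein, had 87.4 (sham) and 67.9 CPM (DMM) for M04 and 85.9 and 107 CPM for M05, which is opposite ratios (-0.02, SE 0.16). Ermap, an erythroid membrane protein that carries the Scianna blood group, was also highest in the sham library of M04, with 230 and 196 CPM in M04 and 171 and 159 in M05 (-0.17, SE 0.15). Rhag, the Rh-associated glycoprotein, and Kel, the Kell blood group antigen, had log2 fold changes of -0.16 and -0.07.

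The membrane skeleton was the role in which all 5 genes were lower in the DMM knee of both mice, although none passed the test and, without TMM scaling, the fitted values of Add2 (0.02) and Tmod1 (0.03) were positive. The median log2 fold change was -0.25. Epb42, which encodes protein 4.2 and ties band 3 to ankyrin, had 133 and 115 CPM in M04 and 132 and 98.9 in M05. Both DMM libraries lay below both sham libraries (-0.31, SE 0.15, unadjusted p = 0.0417, adjusted p = 0.904 by edgeR). Sptb, the beta chain of spectrin, had 396 and 293 CPM in M04 and 270 and 255 in M05 (-0.26, SE 0.15), and Ank1, the ankyrin that anchors spectrin to band 3, 223 and 166 CPM in M04 and 136 and 129 in M05 (-0.25, SE 0.15). Without the sham library of M04, in a fit without the mouse term, the values were 0.02 for Sptb, 0.12 for Ank1, 0.06 for Add2, -0.06 for Tmod1 and -0.30 for Epb42, so 3 of the 5 turned positive. For Sptb and Ank1 the values of M05 lay below those of M04 in either knee, so that the DMM library of M04 was above the sham library of M05. Add2, the beta adducin, and Tmod1 had log2 fold changes of -0.09 and -0.08. Of 21 further red-cell membrane and skeleton genes, none passed, 15 had a negative log2 fold change and the median was -0.07. The 2 with the highest levels, Epb4.1 (protein 4.1) and Tpm3 (a tropomyosin), had log2 fold changes of -0.11 and 0.08.

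Of the soluble enzymes, Car2 stood at 1749 (sham) and 1507 CPM (DMM) for M04 and at 1689 and 1758 CPM for M05 (-0.08, SE 0.18). Bpgm had 987 (sham) and 775 CPM (DMM) for M04 and 1004 and 1152 CPM for M05, again with opposite ratios (-0.07, SE 0.17). Car1, the other red-cell carbonic anhydrase, lay between 259 and 280 CPM in the 4 libraries. Car2 is also a gene of osteoclasts, the bone-resorbing cells. Of 7 osteoclast markers tested none passed for surgery, all 7 had positive log2 fold changes with a median of 0.26, and the 8 listed markers summed to 1667 (M04) and 1415 CPM (M05) in the sham and 2026 and 1691 CPM in the DMM knees. Their part in the level of Car2 was not tested.

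In late maturation, all 6 genes had negative log2 fold changes, from -0.24 to -0.08, and none passed. Tmcc2, a membrane protein with the highest mean FPKM of this role, had 619 CPM in the sham library of M04 and 503 to 514 CPM in the other 3 (-0.12, SE 0.16). Hemgn, a nuclear protein of haematopoietic cells, had 291 and 242 CPM in M04 and 265 and 229 in M05 (-0.24, SE 0.15), with both DMM libraries below both sham libraries. Bnip3l (NIX), which clears mitochondria from reticulocytes, had 292 and 277 CPM in M04 and 448 and 345 in M05 (-0.23, SE 0.15). Here the sham library of M05 was the high one, against the pattern of Slc4a1. Trim58 had 19.2 and 17.9 CPM in M04 and 20.9 and 16.5 in M05 (-0.22, SE 0.21). Trim10, a ubiquitin ligase of terminal erythroid cells, and Xpo7 differed by -0.10 and -0.08.

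Other genes around the pathway were counted for surgery in the same way. No gene passed among 18 further erythroid regulators (median log2 fold change -0.11; E2f2 0.00 and Lmo2 -0.19), 7 progenitor genes (median -0.03; Spi1 0.00), 17 other genes of haem synthesis, transport and breakdown (median -0.13; Blvrb -0.17), 13 of 15 listed genes of iron uptake and storage (median -0.10; the ferritin chains Ftl1 -0.05 and Fth1 0.03) and 23 other genes of late maturation (median -0.07; Gpx1 -0.11 and Prdx2 -0.04). Among the haemoglobin rows, 10 of 12 were tested, repeated rows among them. Of these, 9 had negative values and the median was -0.38. Hbb-b1 (-0.48) and Hbb-b2 (-0.38) each repeat another row, and Hba-a1 and Hba-a2 (-0.32 each) are nearly equal. This tally and median therefore include some values more than once. The embryonic Hbb-bh1 was called higher (1.39, SE 0.38, adjusted p = 0.0388 by edgeR). It rests on the libraries of M05, with 0 and 0.267 CPM in M04 and 10.7 and 26.1 CPM in M05. Globin rows also share reads, so the value of Hbb-bh1 is uncertain. The row Hbb-y was not tested, with 802 (sham) and 8 counts (DMM) for M04 and 2 and 1 counts for M05. Proliferation genes, which dividing erythroblasts also use, had no call among 10 and a median of -0.08, and their summed level was 2503 (M04) and 1717 CPM (M05) in the sham and 2353 and 1900 CPM in the DMM knees. Of 8 markers of the macrophages that nurse erythroblasts, none passed and the median was -0.21. Their summed level was 394 and 351 CPM in the sham and 407 and 330 CPM in the DMM knees.

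Of the 10 chondrocyte markers 6 were called higher in the DMM knees and 4 did not pass, and all 10 log2 fold changes were positive, with a median of 1.006. Their median log2 ratio was 0.33 in M04 and 1.61 in M05, and 0 of 13611 genes were called higher once M05's sham library was left out (a fit with no mouse term). Their part in the small negative values of the 36 genes was not tested, and their summed levels are given above. Of 10 neutrophil, 9 B-lineage and 9 skeletal muscle genes tested none passed for surgery, with medians of -0.01, 0.05 and -0.19. Muscle genes had opposite ratios in the 2 mice (medians 1.59 and -1.99). Neutrophil genes summed to 41873 (M04) and 58667 CPM (M05) in the sham and 45029 and 54969 CPM in the DMM knees, B-lineage genes to 595 and 479 and to 693 and 537, and muscle genes to 155 and 465 and to 447 and 152.

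The second comparison set M05 against M04. Of the 36 genes 1 passed, Ank1, which was lower in M05 by 0.55 on the log2 scale (log2 fold change -0.55, SE 0.15, 95% interval -0.84 to -0.25, adjusted p = 0.0207 by edgeR), against 2.60% of all genes called, 0.962% as higher and 1.64% as lower. Its 223 and 166 CPM in M04 lay above the 136 and 129 CPM in M05, in sham as well as in DMM libraries. The call was kept in 5 of 16 alternative settings (adjusted p 0.0027 to 0.0364) and lost in 11 (0.0570 to 0.782), among them RLE scaling (0.0617), DESeq2 (0.0570) and each fit without 1 library and without the surgery term (0.137 to 0.782). It was lower in M05 in all 16, with log2 fold changes from -0.79 to -0.25. In these 3-library fits the arm left with 1 library is assumed to vary like the other.

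The 36 genes, Ank1 among them, spread to both sides, with 19 negative (52.8%), against 50.9% of all genes. Their median was -0.08, which became 0.06 without the sham library of M04. Both libraries of M05 lay below both of M04 for 11 genes (30.6%), against 22.8% of all genes, and above for 7 (19.4%), against 22.5%. Those below were Ank1, Sptb, Add2, Slc4a1, Rhag, Ermap, Zfpm1, Tal1, Cpox, Slc25a37 and Xpo7. Those above were Alas2, Urod, Fech, Slc25a38, Bpgm, Trim10 and Bnip3l. All 5 membrane-skeleton genes had negative values (median -0.26), whereas 5 of 7 haem enzymes and all 3 soluble enzymes had positive ones (medians 0.07 and 0.09). The lowest log2 fold changes after Ank1 were those of Sptb (-0.38, SE 0.15), Zfpm1 (-0.37, SE 0.15) and Ermap (-0.37, SE 0.15), with adjusted p-values by edgeR of 0.187 to 0.197. The highest were those of Bnip3l (0.47, SE 0.16, adjusted p = 0.0772), Tspo2 (0.32, SE 0.16), Bpgm (0.30, SE 0.17) and Fech (0.24, SE 0.16). Without TMM scaling 32 of the 36 were negative and 8 were called lower, namely Ank1, Sptb, Add2, Rhag, Ermap, Zfpm1, Cpox and Xpo7. That scaling moved the median of all genes by -0.24 and the split of all calls from 126 higher and 215 lower to 21 and 891, and DESeq2 gave 52 and 20. The same setting moved the median of all genes for surgery by 0.11. Relative to the median of all genes, the members' median was -0.07 with and without TMM.

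These values were ordered by transcript length. Length relative to the median gene, read from the ratio of count to FPKM, ran from 0.325 for Tspo2 to 6.13 for Xpo7 among the 36, and its Spearman correlation with the log2 fold change of M05 against M04 was -0.66 across these 36 genes, as a description of 4 libraries that all of them share. Among the 18 shorter genes 4 were negative with a median of 0.06, and among the 18 longer 15 were negative with a median of -0.24. The genes with the longest transcripts, Xpo7, Sptb and Ank1 (6.13, 4.31 and 3.11 times the median), were among the lower in M05. Bnip3l, Fech and Alad departed from this order, with lengths of 1.28, 1.11 and 1.94 and values of 0.47, 0.24 and 0.06. The pattern was not particular to the erythroid genes. Across the 10514 genes averaging 1 FPKM or more, the correlation was -0.50, with medians of 0.13 for the shorter and -0.12 for the longer 5257. For DMM against sham it was -0.56 across the 36 genes and -0.11 across the 10514. In that comparison the medians of the shorter and longer 18 were -0.08 and -0.15.

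**Figure D4:**
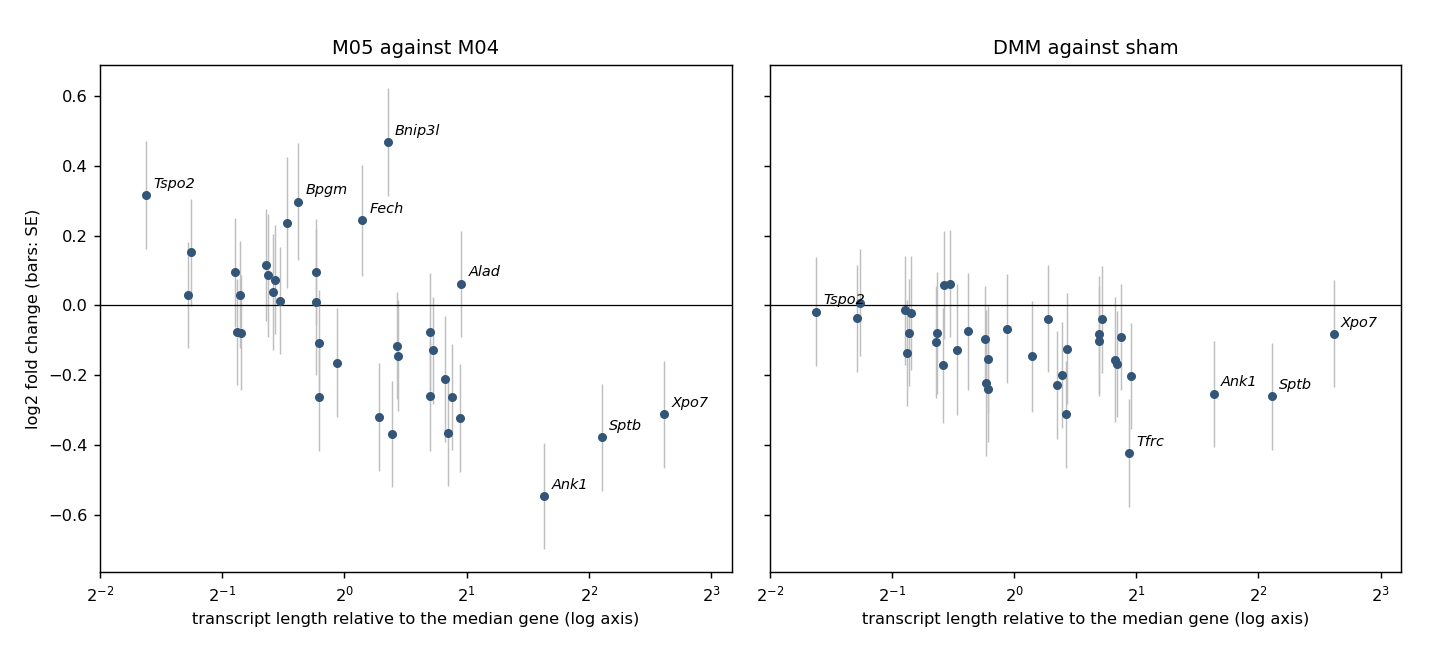
Log2 fold change with its standard error against transcript length relative to the median gene (log axis) for the 36 genes, for M05 against M04 (left) and DMM against sham (right). On the left, Ank1, Sptb and Xpo7 lie at the long and low end and Tspo2 (0.32) at the short and high end, with Bnip3l (0.47) above the others.

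With the length trend removed from each library, Ank1 stood at -0.25 between the mice (adjusted p = 0.742 by edgeR), Sptb at -0.01 and Bnip3l at 0.52 (adjusted p = 0.0955), and none of the 36 passed. Over the same 10514 genes without that step, Ank1 was at -0.56 (adjusted p = 0.0182) and Sptb at -0.39. Between the mice 20 of the 36 were negative without that step and 26 with it, with medians of -0.09 and -0.06. The median of all genes was -0.01 in both settings. The number of genes called between the mice went from 305 to 122. For surgery, the correlation with length across the 36 genes went from -0.56 to -0.27, Sptb from -0.26 to -0.16 and Ank1 from -0.25 to -0.17. Tfrc then stood at -0.38, 33 of the 36 were negative and none was called. Both settings were chosen after seeing the data, and what made the libraries differ by transcript length was not tested.

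Genes around the pathway were also called between the mice in few cases. Of the 18 further erythroid regulators 1 was called, Klf13, which was lower in M05 (-0.998, SE 0.16, adjusted p = 1.06e-06 by edgeR), at 72.8 and 70.0 CPM in M04 and 38.5 and 33.1 in M05. Of these 18 regulators 15 had negative values, with a median of -0.24. Of the 10 haemoglobin rows tested, repeated rows among them, 1 was negative and the median was 0.44. Hba-a1 (0.41), Hbb-bs (0.44) and Hbb-bt (0.56) were higher in M05 but did not pass. Of the haemoglobin rows Hbb-bh1 was called higher in M05. The embryonic Hba-x was called lower (-1.02, SE 0.16, adjusted p = 1.89e-07), at 174 and 189 CPM in M04 and 125 and 63.1 in M05. The 4 remaining lists of haem, iron, membrane and late maturation genes and the list of progenitor genes had no call between the mice, with medians of 0.07, 0.05, -0.06, -0.01 and -0.10. Marker lists of other cells differed more: 7 of 10 chondrocyte markers were called lower in M05, 3 of 9 mast cell and eosinophil markers (Ear2, Ear1 and Prg2) and 2 of 10 neutrophil markers (S100a8 and S100a9) higher, and Gp1ba among 9 megakaryocyte markers and Rag1 among 9 B-lineage markers lower. Their part in the values of the 36 genes was not tested. No osteoclast, macrophage, proliferation or muscle marker was called between the mice.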

How the data were processed

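Superficial-zone cartilage RNA of 2 mice was analysed, with a DMM and a sham library from each. Per the labels' protocols, poly(A) RNA was sequenced as single-end reads on an Illumina HiSeq, and the submitters' processing notes name the build GRCm39 (mm39). The aligner, counting method and strand setting were not given in the sources used here, and reads of overlapping or antisense genes may therefore be mixed. The deposited count table holds the authors' estimated counts, of which 9.21% to 10.9% per library were not whole; its repeat columns equalled the first in all values and were not counted again. The deposited FPKM table holds the authors' FPKM per gene.

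The rounded counts entered edgeR 4.0.16 (R 4.3.3, filterByExpr, 13103 genes; TMM factors 0.883 to 1.13; robust quasi-likelihood fit with mouse and surgery as terms, 1 residual degree of freedom). P-values were adjusted over these 13103 genes (Benjamini-Hochberg). CPM are TMM-normalised, and per-mouse ratios use a prior count of 2. Summed marker levels are CPM of the total count, without TMM. The standard error of a log2 fold change is its size over the root of its F statistic. The numbers pair the samples because both knees of a mouse carry its number in the labels (correlation of same-mouse deviations 0.13 across genes). DESeq2 1.42.0 and limma 3.58.1 served as alternatives. The fit was run on simulated counts with known differences. These were drawn with the fit's own trend of spread around levels common to all libraries. The run therefore cannot show how well the fit holds for these libraries.

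The members and all gene lists were chosen with earlier results of these data known. Values in every library are given for the member with the highest mean FPKM of each role, for members past the threshold, for the 4 highest and 4 lowest fold changes of each comparison at a mean of at least 5 CPM, and for some others. In the other lists, called genes are named, or else the 2 with the highest mean CPM, of which some are not reported here. Of the list genes, 6 matched under an older name and 1 matched no row. Transcript length was taken from count over FPKM (Spearman 0.78 with the longest GENCODE M21 transcript across the 36 genes).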

Additional observations from a re-analysis of the deposited data

How the results depend on the processing

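Of the 36 genes, 0 were called for surgery in the main fit and in all 16 alternatives, and the members' median was negative in 15 of these, with 0.01 without TMM scaling. The members' call between the mice (1) became 0 with RLE, without haemoglobin rows, with DESeq2, with limma on log2(FPKM + 0.1) and on log2(FPKM + 1), with no replicate block (mouse as the single term) and with the length trend removed, and 8 on total counts. Leaving out a library gave 0 to 1, namely Tfrc as lower without the sham library of M05 and Bnip3l as higher without the DMM library of M05, and Ank1 in none.

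Over all genes, the 85 calls for surgery became 35 with RLE, 53 on total counts, 23 without haemoglobin rows, 13 with DESeq2, 0 with either limma fit and 0 with no replicate block, and 0 to 121 when a library was left out. The 341 calls between the mice became 186, 912, 111, 72, 0 and 0 in the same order, 122 with the length trend removed, and 0 to 331 when a library was left out. The cause of these changes was not tested. The fits that left out a library had fewer libraries and also dropped the mouse term or the surgery term. The number of mice, 2, limits the precision.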
